A study of Mus musculus with 12 samples.

Results

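The 4 TCF/LEF genes of the mouse, Lef1, Tcf7, Tcf7l1 and Tcf7l2, were examined for β-catenin chromatin interactions and for the active chromatin mark H3K27ac in forelimb buds with and without inhibition of WNT secretion. A locus was the gene body with 100 kb on either side, and every peak summit inside it was counted, for each antibody, treatment and replicate. The 4 genes are among 21938 protein-coding genes of chromosomes 1 to 19, X and Y, and their loci held 442 of the 268431 summits in the 12 peak lists. All forelimb buds came from wild-type Swiss Albino embryos at E10.5 and were dissected 6 h after injection of either the solvent DMSO (wild-type controls) or C59, an inhibitor of the acyltransferase Porcupine that WNT ligands need for secretion. Each antibody and treatment had 2 replicates, made from whole, pooled forelimb buds with mesenchyme, ectoderm and the precursors of muscle and vessels together. The 12 lists are 8 replicate lists and 4 consensus lists, in which the authors kept the summits found in both replicates.

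TCF/LEF proteins are the DNA-binding partners of β-catenin. Without a WNT signal they sit on their sites with Groucho/TLE co-repressors, and stabilized β-catenin that enters the nucleus binds their N-terminus and brings in the co-activators BCL9 and Pygopus. LEF1 and TCF7 act mainly as activators with β-catenin, TCF7L1 is mostly a repressor, TCF7L2 can do both, and Lef1 and Tcf7 are needed together for normal limb development. Lef1 and Tcf7 are themselves known WNT target genes in many tissues, so that the pathway acts on its own transcription factors.

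Lef1 lies on the plus strand at chr3:131110471-131224356 (mm10, GENCODE M21), Tcf7 on the minus strand at chr11:52252371-52283014, Tcf7l1 on the minus strand at chr6:72626378-72789254 and Tcf7l2 on the plus strand at chr19:55741820-55933654. The Lef1 locus also holds the coding genes Cyp2u1, Hadh and Sgms2, the Tcf7 locus holds Olfr1371, Skp1a and Vdac1, and the Tcf7l1 locus holds Capg, Elmod3, Kcmf1, Retsat and Tgoln1. The Tcf7l2 locus holds no other coding gene. A summit is assigned to a locus by position alone, and its target gene is not known from these data.

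The consensus list of the DMSO controls had 28 β-catenin summits in the 4 loci, of which 8 belonged to Lef1, 5 to Tcf7, 5 to Tcf7l1 and 10 to Tcf7l2. Within 100 bp on either side of the summit, 10 of them held a TCF/LEF core, the bases ATCAAAG or TTCAAAG on either strand. These 10 windows are shown because β-catenin was found there within 100 bp of a sequence that the products of these genes can bind. Binding of TCF/LEF proteins themselves was not measured. The core is in capitals, and each window is written on the strand on which the core nearest to the summit reads in this direction (mm10).
Lef1 -4.4 kb, chr3:131106076-131106136, plus strand: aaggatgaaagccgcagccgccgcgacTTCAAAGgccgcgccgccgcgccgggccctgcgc
Lef1 +26.8 kb, chr3:131137267-131137327, plus strand: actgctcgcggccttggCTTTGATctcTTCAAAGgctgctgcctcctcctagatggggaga
Lef1 +86.4 kb, chr3:131196814-131196874, minus strand: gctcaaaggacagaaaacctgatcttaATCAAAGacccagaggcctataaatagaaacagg
Lef1 -37.7 kb, chr3:131072805-131072865, minus strand: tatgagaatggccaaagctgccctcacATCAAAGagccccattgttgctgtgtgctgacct
Tcf7 -0.3 kb, chr11:52283341-52283401, plus strand: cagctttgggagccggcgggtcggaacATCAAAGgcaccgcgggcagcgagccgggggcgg
Tcf7 -1.4 kb, chr11:52284449-52284475, plus strand: ctggcggaggATCAAAGagaccaggcc
Tcf7l1 +143.9 kb, chr6:72645242-72645302, minus strand: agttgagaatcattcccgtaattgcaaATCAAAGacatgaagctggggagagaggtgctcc
Tcf7l2 -47.0 kb, chr19:55694817-55694877, plus strand: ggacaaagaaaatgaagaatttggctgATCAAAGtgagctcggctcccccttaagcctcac
Tcf7l2 +0.0 kb, chr19:55741886-55741912, minus strand: agcttttcagTTCAAAGgcggcgctga
Tcf7l2 +50.9 kb, chr19:55792705-55792765, minus strand: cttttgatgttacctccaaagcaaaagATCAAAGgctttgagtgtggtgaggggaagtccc

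Distances are from the gene's start in the direction of the gene, so that minus values are upstream. The Lef1 window at +26.8 kb holds 2 cores on opposite strands, and the Lef1 window at +86.4 kb holds a second core outside the stretch shown. In 9 of the 10 windows the centre of the nearest core lay within 50 bp of the summit, and in the Tcf7l1 window it was 96 bp away. The strongest summit of the 3 loci other than Lef1 had no core within its window, and these are shown as the contrast, together with the Tcf7l2 summit at +73.4 kb, on the plus strand with no capitals.
Tcf7 -4.0 kb, chr11:52286995-52287055: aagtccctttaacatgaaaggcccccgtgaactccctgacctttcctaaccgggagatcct
Tcf7l1 +133.7 kb, chr6:72655489-72655549: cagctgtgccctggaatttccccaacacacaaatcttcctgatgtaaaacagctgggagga
Tcf7l2 -79.1 kb, chr19:55662710-55662770: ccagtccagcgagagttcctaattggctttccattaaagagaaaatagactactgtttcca
Tcf7l2 +73.4 kb, chr19:55815197-55815257: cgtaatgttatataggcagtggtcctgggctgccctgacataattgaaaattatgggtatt

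The core was found at 10 of 28 summits, or 35.7% (95% Wilson interval 20.7 to 54.2), against 28.6% of the 16193 DMSO consensus summits of the genome. The share of all summits lies within this interval. Lef1 had it at 4 of 8 summits, Tcf7 at 2 of 5, Tcf7l1 at 1 of 5 and Tcf7l2 at 3 of 10. The E-box CAGCTG, a palindrome read by many basic helix-loop-helix factors, was in 7 windows (25.0%, against 18.8% of all). The homeodomain motif TAATTA, also a palindrome, was in 1 window, of Lef1 at -69.7 kb (3.57%, with an interval of 0.633 to 17.7, against 14.8% of all). RefSeq promoters of 300 bases (GRCm38) were given for 9 transcript starts of the 4 genes, and none held the core, against 8.65% of 32851 promoters; no match says only that these letters are not in the window.

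Before the values, the depth of the libraries has to be considered. The fold enrichment used here is the fragment coverage at the summit over the coverage expected there, each increased by 1, and coverage was recovered from the fold and p of each row. Fragment bases, the lowest expected coverage times the genome size used for peak calling, were between 2.93 and 3.42 Gb in the 4 β-catenin libraries and between 5.03 and 5.93 Gb in the 4 H3K27ac libraries. The whole lists held 20203 and 25836 β-catenin summits in the DMSO replicates against 330 and 358 in the C59 replicates, and between 33180 and 37935 H3K27ac summits in all 4 libraries. The peak threshold was stricter in the C59 β-catenin lists: over background, the lowest coverage listed was 11 fragments in both C59 replicates and 8 in both DMSO replicates. As a check of the tissue, promoters of 5 of 5 markers of limb bud mesenchyme had an H3K27ac summit in DMSO and 4 of 5 in C59. For the ectoderm this was 1 of 6 (Epcam) in DMSO and 0 of 6 in C59, for muscle precursors 2 of 3 in each, and for blood and endothelium 0 of 5 in DMSO and 2 of 5 (Cdh5 and Pecam1) in C59, and their part in the values of the 4 loci was not tested. In whole buds, fewer cells of a type and less signal per cell cannot be told apart.

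All 4 TCF/LEF genes lay in genomic landscapes with many β-catenin summits. Lef1 had 8 and 12 summits in the DMSO replicates, Tcf7 5 and 6, Tcf7l1 5 and 7, and Tcf7l2 12 and 15. In order of these counts Tcf7l2 came first and Lef1 next, and their replicate ranges met at 12. Tcf7l1 and Tcf7 followed with ranges that overlapped, and both lay below Lef1. By the consensus list, all 4 genes had 5 or more summits, which holds for 7.02% of the protein-coding genes. The 8 summits of Lef1 were more than 97.8% of the genes had, the 5 of Tcf7 and of Tcf7l1 more than 93.0%, and the 10 of Tcf7l2 more than 98.7%, with a median of 1 for all genes. Long genes have long windows. Per 100 kb of window, Lef1 had 2.55 summits, Tcf7 2.17, Tcf7l1 1.38 and Tcf7l2 2.55, and the share of genes with a lower density was 97.6%, 95.8%, 86.7% and 97.6% in this order.

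**Figure D1:**
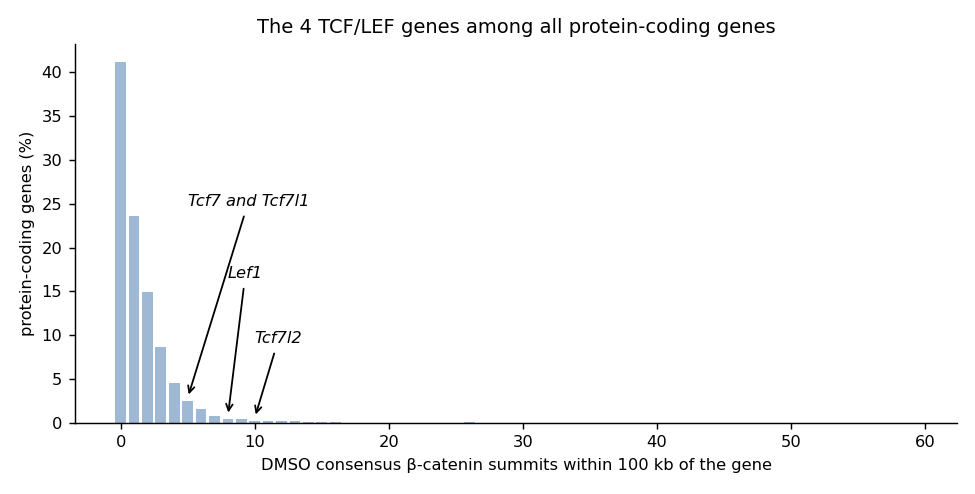
Share of all 21938 protein-coding genes (vertical axis, percent) by the number of DMSO consensus β-catenin summits within 100 kb of the gene (horizontal axis), with the 4 TCF/LEF genes marked by arrows. Tcf7 and Tcf7l1 sit at 5 summits, Lef1 at 8 and Tcf7l2 at 10, all in the right tail of a distribution with a median of 1.

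Most summits lay away from the promoters. Of the 28, 13 were in the body of the TCF/LEF gene itself at 1 kb or more from its transcription start sites, 10 were intergenic, 3 were inside another annotated gene and 2 lay less than 1 kb from a start site of the member. Counting the start sites of all genes, 3 of 28 were this near (10.7%), against 16.3% of all summits. Tcf7l1 had all 5 summits inside its own body, in introns 3 and 4. Lef1 had 3 of 8 in its body and 5 intergenic, and none near a start site.

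By consensus fold, the 3 strongest β-catenin summits of the family were at Lef1, the gene of an activator and, like Tcf7, a known WNT target. By fragments, the third of them, with 56 and 50, lay below the Tcf7 summits at -4.0 kb, with 74 and 103, and at -0.3 kb, with 64 and 71. By fold in DMSO replicate 2, the third Lef1 summit (12.5) lay below the strongest summits of Tcf7 (13.6), Tcf7l1 (13.6) and Tcf7l2 (13.1). In DMSO replicate 1 it lay above them, with 15.6 against 11.7, 8.59 and 13.9. The summit 4.38 kb upstream of Lef1 had fold enrichments of 18.2 and 19.8 in the DMSO replicates, from 139 and 166 overlapping fragments where 6.68 and 7.45 were expected. Its consensus fold of 20.2 was higher than that of 98.5% of all summits. In intron 3, at +26.8 kb, the folds were 16.1 and 16.01 with 90 and 109 fragments. In intron 8, at +86.4 kb, they were 15.6 and 12.5 with 56 and 50 fragments. These 3 summits, which all hold a core, stood above the 5 others of the locus, whose consensus folds were between 6.53 and 8.95. The summit at -37.7 kb with a core was among the weaker ones, with 4.28 and 6.16.

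None of the 8 Lef1 summits lay inside an H3K27ac peak of the consensus lists in either treatment, and 0 of 8 allows a share of up to 37.5%, which includes the 22.1% (DMSO) and 23.0% (C59) of all summits. Their distance to the nearest DMSO H3K27ac region was from 4.16 to 74.7 kb. In DMSO replicate 2 alone, H3K27ac summits were listed at -4.08 kb (fold 2.12) and at +86.1 kb (fold 4.75), near to the strongest and the third strongest β-catenin summits. Neither position had a summit in DMSO replicate 1, so they depend on 1 library.

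Tcf7, the gene of TCF1, had its β-catenin summits crowded around the start of the gene. The strongest was 4.01 kb upstream, with folds of 11.7 and 13.6 from 74 and 103 fragments, and held no core. The next lay 342 bp upstream of the nearest start site, with folds of 9.99 and 9.26 and a core 15 bp from the summit, in an intron of the antisense transcript A630014C17Rik. This was the single Tcf7 summit inside an H3K27ac peak, and it was so in all 4 H3K27ac libraries. A further core lay under the weak summit at -1.4 kb (3.41 and 2.94), in an exon of the same antisense transcript. In intron 2 of Tcf7, at +10.2 kb, the folds were 5.45 and 5.69, close to each other and without a core. The remaining Tcf7 summit, at -27.8 kb, had 4.25 and 4.27.

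Tcf7l1, the repressor of the family, differed in layout. Its 2 strongest summits were deep in intron 3, at +133.7 kb with folds of 8.59 and 13.6 and at +77.4 kb with 9.14 and 10.9. The first of these differed 1.58-fold between replicates, from 25 and 49 fragments. A weaker consensus summit at +77.9 kb (fold 3.06) shares its peak with the second one and has no summit of its own in the replicates. Near the end of the gene, in intron 4, summits at +143.9 kb (5.47 and 4.74, with the one core of this locus) and +140.7 kb (4.32 and 4.00) were weak. Of the 5 Tcf7l1 summits, 3 lay inside a DMSO H3K27ac consensus peak (interval 23.1 to 88.2%, against 22.1% of all summits), and 2 of these share a β-catenin peak. The one at +77.4 kb lay inside the H3K27ac peaks of neither DMSO replicate. A summit at +0.174 kb from the gene start was listed in DMSO replicate 2 alone (fold 3.81).

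Tcf7l2 had the most summits, spread over the 391.835 kb of its locus. The strongest was 79.1 kb upstream, in an intron of the non-coding gene 4930552P12Rik, with folds of 13.9 and 13.1 from 55 and 65 fragments. In intron 3 of Tcf7l2, at +73.4 kb, the folds were 10.9 and 11.1, and beyond the gene's end, at +199.4 kb, they were 8.75 and 11.8. None of these 3 held a core. The summits with a core were lower: 7.80 and 6.83 at +50.9 kb in intron 3, 6.24 and 5.74 at 19 bp from the start site in the first exon, and 5.67 and 6.09 at -47.0 kb. Thus at Lef1 the 3 strongest summits held a core and at Tcf7l2 the 3 strongest did not, which is a description of 8 and 10 positions. Over the 28, the median consensus fold was 7.91 with and 7.07 without a core.

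The consensus list keeps only summits found in both replicates, so their presence in both is no measure of agreement. Of the 28 consensus summits, 27 had a summit of their own in both DMSO replicates. At these 27, the higher replicate fold was between 1.00 and 1.64 times the lower, with a median of 1.14. Replicate 2 was the higher at 16 of the 27. The summits listed in 1 DMSO replicate and outside the peaks of the other numbered 3 of 30 in replicate 1 and 11 of 40 in replicate 2, and all were weak, with folds between 3.20 and 4.98. The 28 had a median consensus fold of 7.07 (3.06 to 20.2), against 6.76 for all summits of the genome and by locus the medians were 8.28 for Lef1, 5.65 for Tcf7, 5.56 for Tcf7l1 and 7.07 for Tcf7l2.

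**Figure D2:**
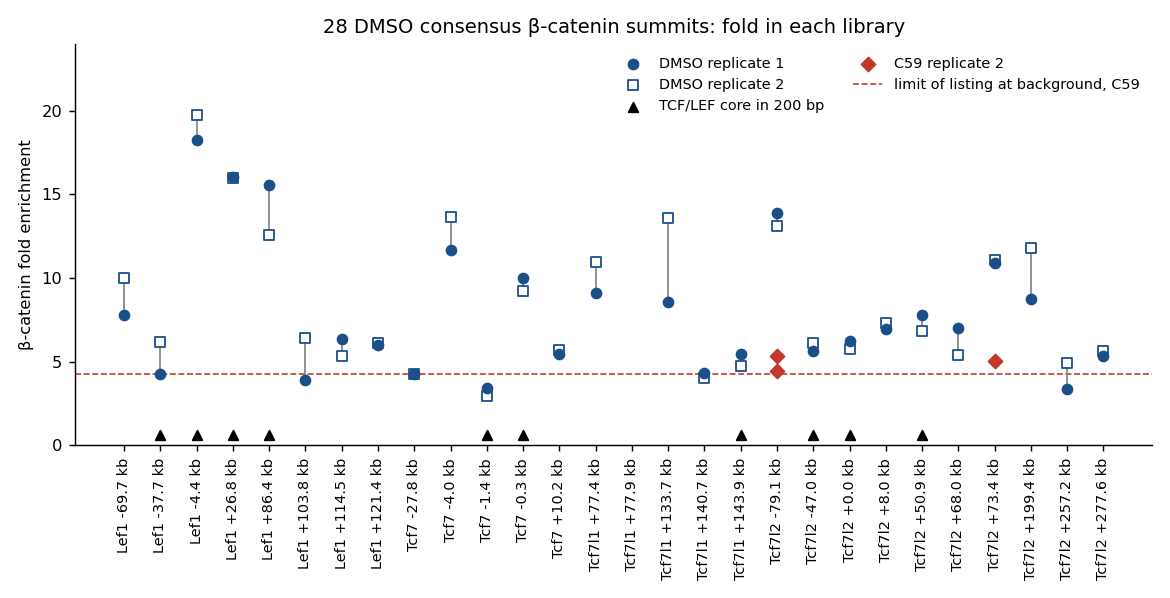
β-Catenin fold enrichment (vertical axis) at the 28 DMSO consensus summits, ordered by gene and by distance from the gene's start (horizontal axis), in DMSO replicate 1 (filled circles), DMSO replicate 2 (open squares) and, where listed, C59 replicate 2 (red diamonds). Triangles mark a TCF/LEF core and the dashed line is the fold at the lowest coverage listed over background in C59 replicate 2 (4.26; 4.24 in replicate 1). The 3 strong Lef1 summits with cores reach 12.5 to 19.8, and the C59 diamonds lie at 2 Tcf7l2 positions; the summit at +77.9 kb of Tcf7l1 has no replicate value.

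To determine what C59 did to β-catenin at its partners' own genes, the replicate lists were compared between treatments. Lef1, Tcf7 and Tcf7l1 had 0 summits in both C59 replicates, and Tcf7l2 had 0 and 3. Together the 4 loci had 30 and 40 summits in DMSO against 0 and 3 in C59, a difference of 33.5 between the means (35.0 ± 7.07, SD, n = 2, against 1.5 ± 2.12). The groups did not overlap at any of the 4 genes, which was also so for 65.0% of all protein-coding genes. With 330 and 358 summits in the whole C59 lists, this depends mostly on whether a gene had summits in both DMSO replicates. The two-sided exact permutation p was 0.333 for each gene, and it is the smallest that 2 against 2 libraries can give.

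None of the 28 DMSO summits was inside a peak of the C59 consensus list (0 of 28, which allows a share of up to 10.7%), against 1.12% of all summits. A C59 consensus summit within the locus was seen at 0 of 4 genes and at 0.898% of all genes. The stricter threshold in C59 bears on this: of the 27 summits with both DMSO values, 25 had a −log10 p in both DMSO replicates that would also have been listed in both C59 lists (5.72 or more), and 23 had coverages of at least 11 in both. For these, signal as high as in the controls would have been listed, and for the others the C59 lists cannot tell lower from unchanged coverage.

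The exceptions were both at Tcf7l2 and both in C59 replicate 2. The upstream position at -79.1 kb had C59 summits of fold 5.34 and 4.44, the first from 16 fragments, or 8.79 times the background of that library. In the DMSO replicates the coverage there was 35.1 and 35.9 times background. In intron 3, at +73.4 kb, the C59 summit had a fold of 5.02 from 15 fragments, 8.24 times background, against 24.2 and 25.9 times in DMSO. Thus the 2 positions were listed in 1 of 2 C59 libraries, at levels well below both controls. Counting a peak of either C59 replicate, 2 of 28 summits (7.14%, interval 1.98 to 22.6) were retained. The share of all summits, 2.30%, lies within this interval. The 2 positions are the strongest and the second strongest Tcf7l2 summits, and their sequences are given above without a core. The summit at -79.1 kb lay inside a DMSO H3K27ac consensus peak, with the peak of 1 DMSO replicate, and outside the C59 peaks. The summit at +73.4 kb lay inside a C59 H3K27ac consensus peak, in the peak of neither C59 replicate, and 43 bp from a DMSO region. These placements show no loss or gain of the mark, as both H3K27ac regions were listed in both replicates of both treatments. Their folds were 8.69 and 11.9 in DMSO against 11.1 and 10.7 in C59 upstream, and 6.85 and 5.75 against 4.44 and 6.23 in intron 3.

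**Figure D3:**
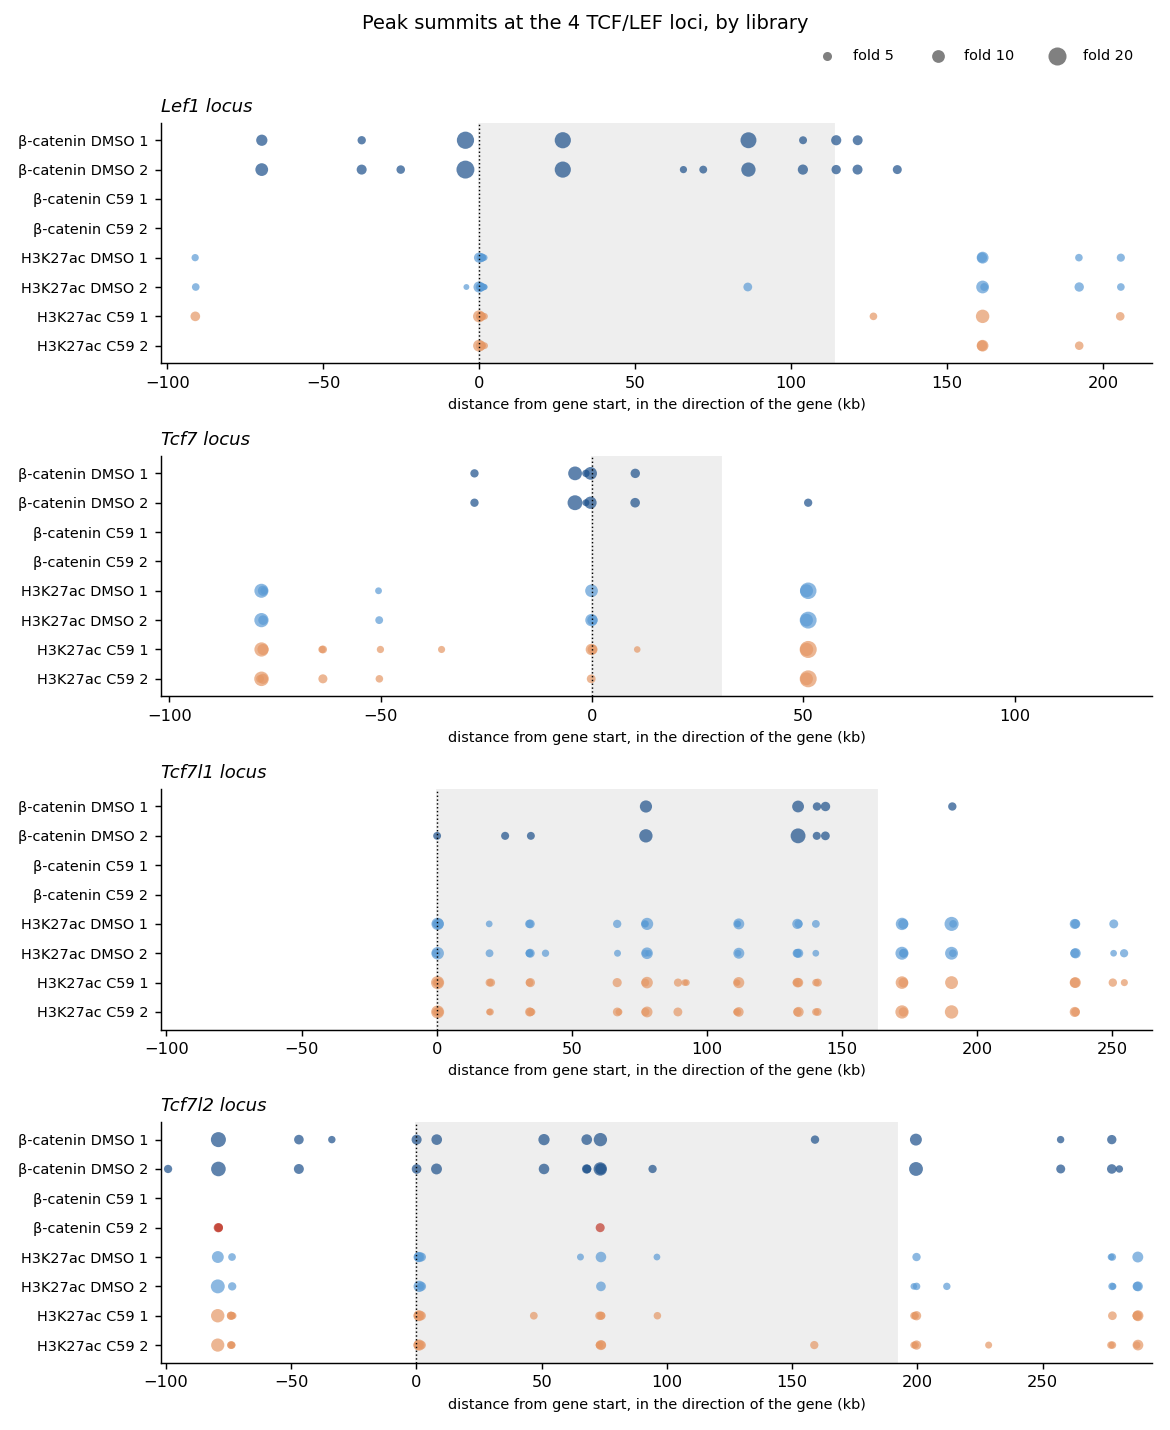
Summits at the 4 loci in each of the 8 replicate libraries (rows), by distance from the gene's start in the direction of the gene (horizontal axis, kb), with the circle area in proportion to the fold enrichment and the gene body in grey. The 2 DMSO β-catenin rows are filled at every locus, the C59 β-catenin rows are empty but for 3 summits at Tcf7l2, and the H3K27ac rows hold summits in both treatments.

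H3K27ac summits were listed at all 4 loci in every library, with and without C59. The 4 loci had 52 and 59 H3K27ac summits in DMSO against 69 and 61 in C59 (55.5 ± 4.95, SD, n = 2, against 65.0 ± 5.66). These counts include summits of regions at the start sites of neighbouring genes. Such genes were Hadh and Cyp2u1 at Lef1, Skp1a and Vdac1 at Tcf7, and Capg, Retsat and Tgoln1 at Tcf7l1. By locus, Lef1 had 10 and 13 in DMSO and 9 and 7 in C59, Tcf7 7 and 7 against 11 and 8, Tcf7l1 23 and 26 against 28 and 25, and Tcf7l2 12 and 13 against 21 and 21. Lef1 was thus higher in DMSO without overlap, as were 12.1% of all genes, Tcf7 and Tcf7l2 were higher in C59 without overlap, as were 4.84%, and Tcf7l1 overlapped. The two-sided exact permutation p was 0.333, the smallest possible, for Lef1, Tcf7 and Tcf7l2 and 0.667 for Tcf7l1.

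The summit counts rest partly on how many summits the caller placed within a region. With overlapping peaks merged and each region counted once, Lef1 had 5 and 9 regions in DMSO against 6 and 4 in C59, and Tcf7l2 9 and 9 against 10 and 12, so that the Lef1 difference became an overlap and the Tcf7l2 difference shrank to 1 region between the nearest libraries. For Tcf7 it was 4 and 4 against 7 and 5, and for Tcf7l1 15 and 17 against 18 and 16. Over the 4 loci this gave 33 and 39 regions in DMSO against 41 and 37 in C59, which overlap.

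**Figure D4:**
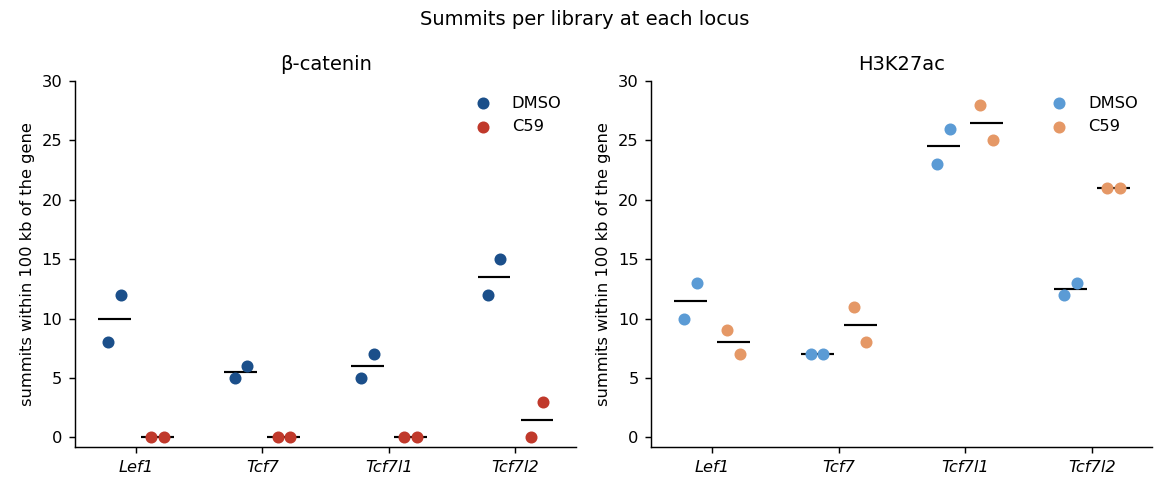
Number of summits within 100 kb of each gene (vertical axis) for β-catenin (left) and H3K27ac (right), with a point for each replicate library and a bar at the mean of 2. β-Catenin counts lie between 5 and 15 in DMSO and between 0 and 3 in C59, whereas H3K27ac counts lie between 7 and 28 over both treatments.

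Of the 27 DMSO consensus H3K27ac regions in the 4 loci, 23 overlapped a C59 region (85.2%, interval 67.5 to 94.1), against 87.0% of all regions. In the other direction 25 of 28 C59 regions overlapped a DMSO region, with 89.3% for all C59 regions. Merged across treatments, the loci held 30 regions, with 23 in both lists, 4 in DMSO alone and 3 in C59 alone. Lef1 had 3 of the 4 regions listed in DMSO alone, at -90.9, +192.4 and +205.7 kb, and each of these had a summit in 1 of the C59 replicates. The Tcf7l2 locus had 7 regions, all in both lists. Tcf7 had a region at -63.7 kb that was listed in both C59 replicates (3.83 and 5.03) and in neither DMSO replicate, nearest to the start of Vdac1.

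Of the 28 β-catenin summits, 6 lay inside a DMSO H3K27ac peak (21.4%, interval 10.2 to 39.5), against 22.1% of all summits, and 6 lay inside a C59 H3K27ac peak, against 23.0%. With the DMSO H3K27ac peaks widened by 1 kb, it was 10 of 28 (35.7%). By position, 9 were inside a peak of at least 1 treatment and 3 inside peaks of both. With H3K27ac regions merged across treatments, 8 held β-catenin summits, 1 at Tcf7, 3 at Tcf7l1 and 4 at Tcf7l2. All 8 were listed in DMSO and in C59. At these 8 regions, therefore, the mark was listed after C59 while no β-catenin summit was in the C59 consensus, with the 2 Tcf7l2 positions of C59 replicate 2 among them. The folds of the mark at these regions went both ways. At Tcf7l2 +199.7 kb they were 4.27 and 3.42 in DMSO and 5.32 and 5.31 in C59, and Tcf7l1 +141.0 kb was also higher in C59. At Tcf7l1 +77.9 kb they were 9.12 and 8.33 in DMSO against 8.25 and 7.26 in C59, and the Tcf7 promoter was also higher in DMSO. The other regions overlapped. Of all H3K27ac regions, 20.9% were higher in C59 and 19.4% higher in DMSO without overlap.

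All 4 genes had H3K27ac at their promoters in every library. At the Lef1 promoter the H3K27ac folds were 6.42 and 7.59 in DMSO and 8.81 and 8.62 in C59. At Tcf7 they were 9.91 and 9.36 against 7.93 and 4.78. At Tcf7l1 they were 9.36 and 9.70 against 10.6 and 10.4. These 3 genes did not overlap between treatments on this scale, with Tcf7 lower and the other two higher after C59. At Tcf7l2 the values of 6.54 and 7.90 against 7.35 and 7.74 overlapped. The exact permutation p was 0.333 for Lef1, Tcf7 and Tcf7l1, the smallest possible, and 1 for Tcf7l2, so no promoter passed a test. Of 11104 promoters listed in all 4 libraries, 19.7% had both DMSO folds above both C59 folds and 20.9% the reverse.

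The direction at Lef1 depended on the scale. The fold is relative to the local coverage, which at the Lef1 promoter was 21.0 and 22.5 in DMSO and 16.9 and 16.1 in C59. When the coverage was instead divided by the background of the library, the Lef1 promoter had 52.1 and 61.4 times background in DMSO and 49.5 and 49.1 in C59, so that DMSO was the higher. Tcf7 kept its direction, with 17.5 and 17.0 in DMSO against 11.98 and 6.39 in C59. Tcf7l1 overlapped (66.9 and 69.0 against 72.5 and 63.9), and Tcf7l2 was higher in C59 by a margin of less than 1 (109.7 and 133.1 against 138.4 and 133.4). On this scale 38.3% of promoters had both DMSO values above both C59 values and 10.1% the reverse. Tcf7 was thus the one promoter of the family whose H3K27ac was lower in both C59 libraries on both scales, from 47 and 49 fragments in DMSO and 38 and 19 in C59, with a wide gap between the C59 replicates. The Tcf7 promoter had a β-catenin summit, at 342 bp, inside an H3K27ac peak. The Tcf7l2 promoter also had a β-catenin summit, 19 bp from the start site and 430 bp from the DMSO H3K27ac region. That region had its top summit at +1.07 kb, in intron 2 and near a different Tcf7l2 start site. The H3K27ac there was not lower in C59 on either scale. A link between β-catenin and the mark at these promoters was not tested.

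**Figure D5:**
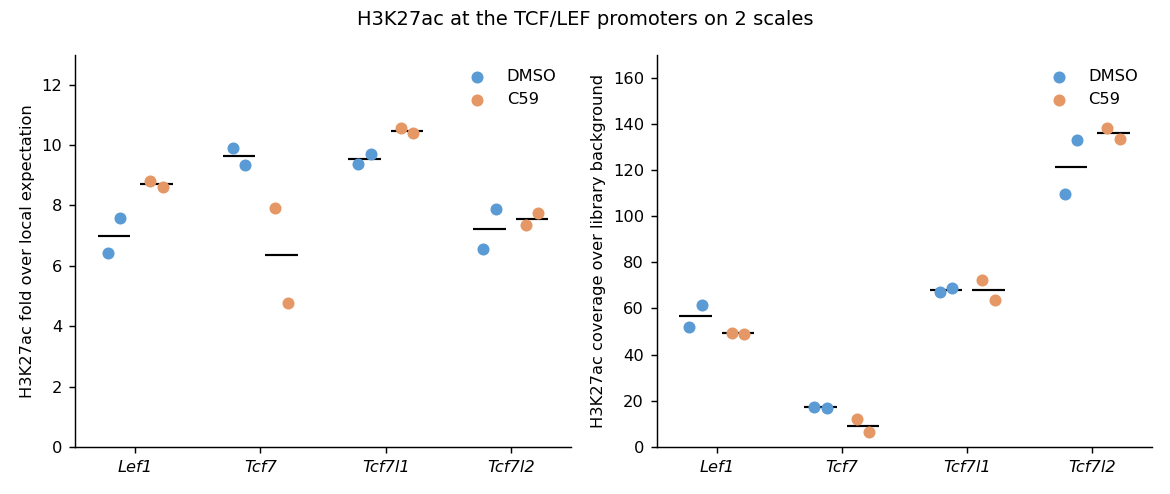
H3K27ac at the promoters of the 4 genes in the 4 libraries, as fold over the local expectation (left) and as coverage over the background of the library (right), with bars at the mean of 2 replicates. Tcf7 is lower in C59 in both panels, whereas Lef1 is higher in the left panel and lower in the right one.

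Over all H3K27ac regions of the loci that were listed in all 4 libraries (24), the fold was higher in both C59 libraries at 8, higher in both DMSO libraries at 2 and overlapped at 14. Across the genome, 20.9% of regions were higher in C59 and 19.4% higher in DMSO. As coverage over background, 23 regions could be compared, of which 6 were higher in C59 and 4 in DMSO (12.9% and 35.6% of all regions). On the second scale Tcf7l2 had 4 of its 7 regions higher in C59 and none higher in DMSO, and Tcf7 had 2 of 3 higher in DMSO. By fold, Tcf7l2 had 1 of 7 higher in C59 and 6 that overlapped. Tcf7 had 2 of 4 higher in C59 and 1 higher in DMSO, so the picture by locus depended on the scale.

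The partners of TCF/LEF proteins on DNA were compared as a list of 22 genes. It holds β-catenin itself (Ctnnb1), its inhibitor Ctnnbip1 and the co-activators Bcl9, Bcl9l, Pygo1, Pygo2, Crebbp, Ep300, Cdc73 and Smarca4. It also holds the genes of the Tle family, the kinases Hipk2, Nlk and Tnik, and the co-repressors Ctbp1, Ctbp2 and Hdac1. Of the 22, 20 had a DMSO β-catenin consensus summit within 100 kb, against 58.8% of all genes, and 6 had 5 or more, against 7.02%, with a median of 3. The co-repressor genes Tle4 with 11 and Tle3 with 8 had the most, beside 10 at Tcf7l2 and 8 at Lef1. Ctnnb1 had 1 summit in each DMSO replicate and none in the consensus. In 21 of 22 genes both DMSO counts were above both C59 counts, against 65.0% of all genes. With 330 and 358 summits in the whole C59 lists, this depends mostly on whether a gene had summits in both DMSO replicates. It is therefore no measure of a stronger response to C59. No gene of the 22 had a DMSO summit inside a C59 consensus peak. The 1.12% of all summits that lay in such peaks counts summits and not genes, so no comparison is drawn. The exception in the β-catenin counts was Crebbp, with 0 and 3 in DMSO and 0 and 0 in C59. For H3K27ac 1 of 22 (Hipk2) was higher in DMSO without overlap, against 12.1% of all genes, and 0 in C59, against 4.84%. Tle2, Tle5 and Tle6 lie side by side and share their summits, so they are not 3 separate observations.

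Finally, the genes whose counts over the 8 libraries were most like those of each TCF/LEF gene were identified, by the Euclidean distance of log2(count + 1). They were Cox10 (0.279) and Acap2 (0.394) for Lef1, Hs2st1 (0.228) and Rbm15 (0.304) for Tcf7, and Midn (0.240) and Plscr3 (0.252) for Tcf7l1. For Tcf7l2 they were Pknox2 (0.567) and Ralgps2 (1.13), at larger distances than for the other members. Pknox2 had 11 and 13 β-catenin summits in DMSO and 0 and 2 in C59, with 12 and 14 H3K27ac summits in DMSO and 20 and 17 in C59.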

How the data were processed

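Peak lists of β-catenin and H3K27ac ChIP-seq from forelimb buds were used, 8 from replicates and 4 consensus lists; the 4 input samples are not analysed here. The authors trimmed reads with Cutadapt (4.1 in the submitters' processing notes), mapped them with Bowtie2 2.4.5 to mm10 and called peaks with MACS2 2.2.7.1 without input. Consensus peaks were called on both replicates after Picard deduplication and sampling to equal depth. Chromatin for β-catenin had an additional DSG crosslink. Each deposited row gives a fold (ratio) and the −log10 of p and q as deposited by the authors.

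Rows were read against GRCm38 and GENCODE M21 with Python 3.11.15, numpy 2.4.6, scipy 1.17.1 and pysam 0.24.0. A summit was assigned within 100 kb of the gene body. Coverage was solved from fold and p for rows with −log10 p up to 250, to within 0.01, and was tested on simulated data. Groups came from the labels. Treatments were compared by two-sided exact permutation tests over 2 against 2 libraries, which cannot pass 0.05; the methods call the replicates biological, from different embryos, with pooled forelimb buds in each library, and the labels do not tie a library to a litter. Shares have Wilson intervals at 95%, and intervals and floors (3 counts) cover counting error only. Named summits are the 3 of highest fold in each locus, those less than 1 kb from a start site of the gene, inside a C59 consensus peak or with a core; the others named were chosen after their values were seen. The genes, the lists and the tests were chosen with earlier results of these data known.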

Additional observations from a re-analysis of the deposited data

How the results depend on the processing

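In all, 79 alternative values were computed for 10 results. The difference in β-catenin summits kept its direction in each of its own alternatives, from 28.5 to 38.5 when a library was left out, and the difference in H3K27ac summits (DMSO minus C59) did so too, from -13.5 to -5.5 when a library was left out, but shrank from -9.5 to -3 when peak regions were counted, with overlapping groups. Replicate numbers are shared by the labels alone. Same-numbered H3K27ac libraries deviated from their treatment means with a correlation of 0.0190 over 11104 promoters, and with the replicate block (exact sign changes within pairs) the differences remained 33.5 and -9.5 summits, and the p became 0.5, the smallest possible, for the promoters of Lef1, Tcf7 and Tcf7l1, so no call changed. The share of β-catenin summits inside DMSO H3K27ac peaks was 10% to 15% when the lists of 1 replicate stood in for the consensus, against 21.4%, and 35.7% with H3K27ac peaks widened by 1 kb; the cause was not tested. The share of DMSO H3K27ac regions overlapping a C59 region was 100% within 50 kb (17 of 17) and inside gene bodies (11 of 11), where the 4 regions listed in DMSO alone do not lie. The H3K27ac fold difference at the Tcf7l2 promoter (-0.32) was between -1.001 and 0.35 without 1 library, and turned to 0.35 without DMSO replicate 1. As coverage over library background, a scale chosen after seeing the data, the Lef1 promoter difference reversed to 7.44 times background. A summit that is not listed may lie under the threshold, which was higher in the C59 β-catenin lists.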
